A study of Mus musculus with 12 samples.

Results

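The ribosome biogenesis genes described here are 51 genes for nucleolar and pre-rRNA processing proteins, taken by name from a list of such genes. All 51 were found among the 24346 gene symbols in the files, and all 51 were among the 10797 symbols that reached 1 FPKM in 2 or more libraries, the filter used for testing. Levels are in FPKM, that is, sequenced fragments scaled to transcript length (kilobases) and library size. RNA came from marginal zone B cells, innate-like B lymphocytes of the spleen, of wild-type mice and of Trpm5-/- mice, which lack the calcium-activated cation channel TRPM5. Cells of each genotype were kept for 4 h without stimulus, with LPS (10 µg/mL, a ligand of Toll-like receptor 4) or with anti-IgM (10 µg/mL), an antibody that cross-links the B cell receptor. Each of these 6 groups held 2 libraries, 12 in all. The sources used here do not give the strain, age and sex of the mice, nor which part of Trpm5 is deleted and in which cells. They also leave unsaid whether both libraries of a group are from different mice or cultures. Every p-value therefore measures only library-to-library spread, which may be technical.

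A ribosome is built in the nucleolus. RNA polymerase I transcribes a long precursor rRNA, small nucleolar ribonucleoproteins (snoRNPs) guide its chemical modification, and a large set of assembly factors and helicases cleave, fold and trim it into the 40S and 60S subunits. Resting B lymphocytes make few ribosomes and raise this production when they enter growth, and the transcription factor MYC is known to act on many of these genes.

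The labelled cell type was checked against its markers. The 6 B cell markers were detected in every library (summed 1632 to 5618 FPKM), and the 5 marginal zone markers summed to 365 to 608.3 FPKM. Of these, the complement receptor gene Cr2 stood at 33.9 to 87.4 FPKM and Cd1d1 at 2.09 to 15.3 FPKM, lower with both stimuli. Fcer2a, a marker of follicular B cells, stood at 53.4 to 937 FPKM, above Cr2 in all 12 libraries. Of the T cell markers 5 of 6 were in the files, with a sum of at most 1.38 FPKM, and 3 of 4 neutrophil markers summed to at most 2.78 FPKM, with S100a8, S100a9 and Mpo at 0 in all wild-type libraries. The 4 NK cell markers summed to at most 3.36 FPKM and the 4 dendritic cell markers to at most 6.53 FPKM. Higher sums were seen for the 6 macrophage and monocyte markers (15.75 to 33.01 FPKM) and the 5 erythroid markers (100.5 to 680.7 FPKM). Trpm5 itself was barely expressed, at 0.0196 to 0.434 FPKM in wild-type and at most 0.0303 FPKM in Trpm5-/- libraries. Total FPKM ran from 563461 to 805373 and was highest with LPS. The sources used here do not give read totals. Relative depth, estimated from the value of 1 fragment, spanned 0.645 to 1.06 (wild-type unstimulated replicate 1 set to 1).

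The 51 genes together rose step by step from unstimulated cells to anti-IgM to LPS. Their summed FPKM was 3537 and 3463 in the wild-type unstimulated libraries, 7829 and 7707 with anti-IgM, and 13374 and 13681 with LPS. The Trpm5-/- sums were 4098 and 4091 without stimulus, 8759 and 8863 with anti-IgM, and 14647 and 14150 with LPS. No 2 of the 6 groups overlapped in this sum, and within each condition both Trpm5-/- libraries lay above both wild-type libraries. As a share of all FPKM the genes went from 0.592% and 0.615% in wild-type unstimulated cells to 1.75% and 1.81% with LPS. Because these are bulk samples, more cells expressing a gene and more RNA per cell cannot be told apart.

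For each of the 51 genes, all 4 anti-IgM libraries were above all 4 unstimulated libraries, and all 4 LPS libraries were above all 4 anti-IgM libraries. Within a genotype, libraries that do not overlap, anti-IgM higher than unstimulated, were found for 39.5% of tested genes in wild-type and 38.4% in Trpm5-/- cells, and LPS higher than anti-IgM for 39% and 39.7%. The lowest group was wild-type unstimulated for 50 genes, and the highest was Trpm5-/- with LPS for 49. The shares of all tested genes with the order over 4 libraries, or with these lowest and highest groups, were not counted. The 2 libraries of a group differed by a median of 2.74% to 5.66% of their mean over the 51 genes, and by at most 22.3%. The heat map of the 51 genes shows these steps library by library.

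**Figure D1:**
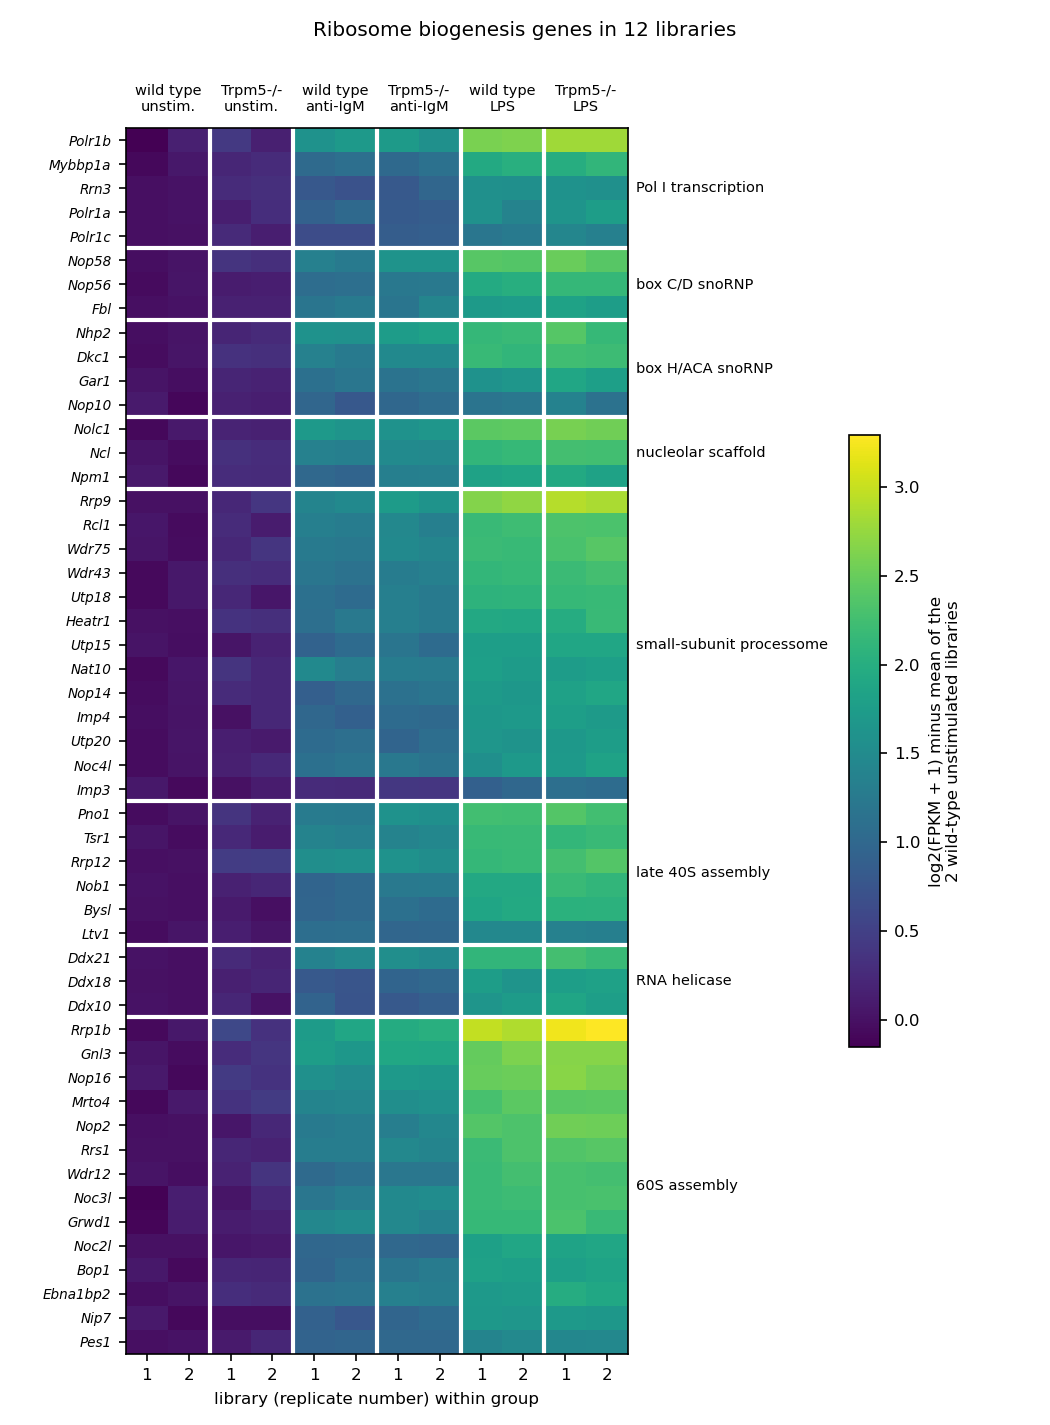
Heat map of log2(FPKM + 1) for the 51 genes (rows, grouped by role) in the 12 libraries (columns, 2 per group), each row relative to the mean of its 2 wild-type unstimulated libraries. Every row brightens from unstimulated to anti-IgM to LPS in both genotypes, with Rrp1b the brightest row under LPS and Imp3 the faintest.

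In wild-type cells LPS raised all 51 genes, against a background of 35% of all tested genes called higher (limma, Benjamini-Hochberg adjusted p between 3.27e-10 and 9.06e-07 for the 51). The log2 rise ranged from 0.95 to 2.93 with a median of 1.98, a 3.94-fold rise, while the median over all tested genes was -0.02. A rise of at least 2-fold was seen in 50 genes and one of at least 4-fold in 24, and 44 of the 51 were in the top 5% of all tested genes by size of rise. In Trpm5-/- cells LPS also raised all 51 (background 34.8%), by a median of 1.90 on the log2 scale, a 3.73-fold rise. With quantile normalization all 51 still rose, but by a smaller median log2 of 1.61 in wild-type and 1.49 in Trpm5-/- cells.

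Anti-IgM raised the same 51 genes by less. In wild-type cells all 51 were called higher (background 27.7%, limma adjusted p up to 0.00597), with a median log2 rise of 1.16, or 2.23-fold, and a range of 0.26 to 1.81. At least 2-fold was reached by 36 genes and 4-fold by 0. In Trpm5-/- cells all 51 were called as well (background 26.9%), with a median of 1.05, or 2.08-fold. The direct comparison of LPS with anti-IgM was called higher for 51 genes in wild-type cells (background 27.7%, median 0.82) and for 50 in Trpm5-/- cells (background 28.3%, median 0.77). The exception was Nop10 in Trpm5-/- cells (0.22 ± 0.09, standard error; limma adjusted p = 0.0651). Both responses are measured against the same unstimulated libraries. The log2 rise with anti-IgM was a median of 57.7% of that with LPS in wild-type cells and 57.6% in Trpm5-/- cells, and in wild-type cells it lay between 50% and 75% for 44 of 51 genes. Nat10 had the highest share in wild-type cells, at 79.2%, and Imp3 the lowest, at 27.8%.

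Several other measures moved with the stimuli, and their part in these rises was not tested. The summed level of the 6 B cell markers fell from 5374 to 5618 FPKM in wild-type unstimulated cells to 3375 to 3434 FPKM with LPS and 1895 to 1907 FPKM with anti-IgM. The nuclear RNAs Malat1 and Neat1 summed to 389 to 432.3 FPKM without stimulus, 142.5 to 167.7 FPKM with LPS and 258.5 to 293.9 FPKM with anti-IgM in wild-type cells. The follicular B cell markers Fcer2a and Cd200 summed to 149.2 to 166.4 FPKM without stimulus, 956.5 to 976.4 FPKM with LPS and 130 to 147.1 FPKM with anti-IgM. The 4 plasma cell markers summed to 119.1 to 122.7, 74.5 to 76.5 and 133.6 to 139.2 FPKM in the same order. With anti-IgM Xbp1 rose from 74.2 and 69.8 to 102.7 and 106.4 FPKM, while Sdc1 fell from 17.0 and 19.7 to 6.96 and 7.24 FPKM. Jchain also fell with anti-IgM, and Prdm1 overlapped. Relative depth was 0.934 and 1 without stimulus, 0.67 and 0.677 with LPS, and 0.664 and 0.812 with anti-IgM.

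**Figure D2:**
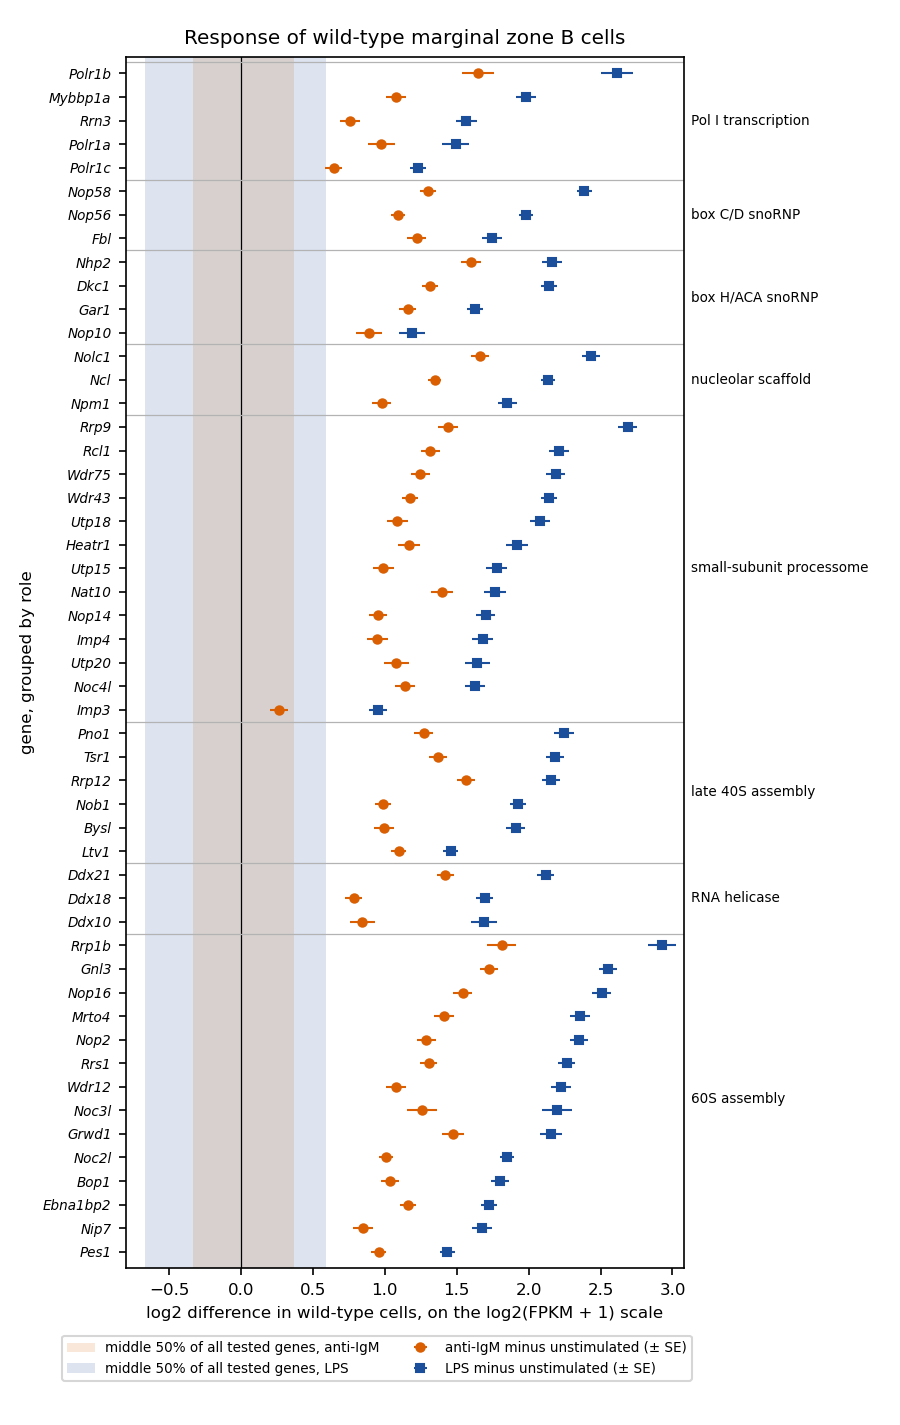
Log2 rise of each of the 51 genes in wild-type cells with anti-IgM (circles) and with LPS (squares), with standard errors of the model, and the middle 50% of all tested genes as shaded bands. All symbols lie to the right of 0 and every square lies to the right of its circle, with LPS rises from 0.95 for Imp3 to 2.93 for Rrp1b.

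The promoters of these genes are shown here because the 51 genes moved together. RefSeq windows of 250 bases before to 50 bases after the annotated start (build GRCm38.p6) were matched by symbol for 46 of the 51 genes, and none was matched for Npm1, Fbl, Rrs1, Rrp12 and Bop1. The E-box CACGTG, which reads the same on both strands and is bound by MYC and related factors, was present in 12 of the 46 genes (26.1%), against 12.5% of the 8231 tested genes with a window and 8.1% of all 27025 genes with one. The motif CCGGAAG (or CTTCCGG on the other strand), the core of ETS factor sites, was present in 34.8% against 22.7% of tested genes, and TATAAA (or TTTATA) in 4.3% against 8.1%. The other motifs counted were not more frequent in these genes than in tested genes. A site of the factor NRF1 was present in 2.2% against 2.6%. A further motif that reads the same on both strands was present in 0% against 1.3%. Motifs were counted separately, so 1 window can count for several. Of the 12 genes with the E-box, 8 had it after the start and 4 only before it. The upstream 250 bases of those 4 follow, 5′ to 3′ on the gene's strand, with the E-box in capitals. Rrn3 (chr16:13780449-13780698, plus strand) encodes the factor TIF-IA that makes RNA polymerase I competent to start, and its E-boxes begin 215 and 48 bases before the start. Nop2 (chr6:125131633-125131882, plus strand) encodes an rRNA cytosine methyltransferase of the large subunit, and its E-box begins 60 bases before the start. Utp18 (chr11:93885767-93886016, minus strand) and Imp4 (chr1:34439579-34439828, plus strand) encode parts of the small-subunit processome, with the E-box 20 and 121 bases before the start.
Rrn3: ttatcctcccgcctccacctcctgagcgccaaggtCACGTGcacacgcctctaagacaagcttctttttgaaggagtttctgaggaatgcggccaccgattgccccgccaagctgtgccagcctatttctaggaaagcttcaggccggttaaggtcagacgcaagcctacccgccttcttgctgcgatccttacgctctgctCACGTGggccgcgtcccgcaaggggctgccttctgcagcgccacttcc
Nop2: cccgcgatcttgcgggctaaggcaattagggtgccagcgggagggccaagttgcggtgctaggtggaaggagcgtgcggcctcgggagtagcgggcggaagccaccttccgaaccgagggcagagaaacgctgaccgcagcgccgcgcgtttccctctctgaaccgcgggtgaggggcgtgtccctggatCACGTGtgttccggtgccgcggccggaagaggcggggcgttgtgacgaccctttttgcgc
Utp18: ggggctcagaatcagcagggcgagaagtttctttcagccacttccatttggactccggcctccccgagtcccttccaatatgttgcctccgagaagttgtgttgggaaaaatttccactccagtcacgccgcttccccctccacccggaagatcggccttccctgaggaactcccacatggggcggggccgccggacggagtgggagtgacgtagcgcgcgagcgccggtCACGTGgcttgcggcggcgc
Imp4: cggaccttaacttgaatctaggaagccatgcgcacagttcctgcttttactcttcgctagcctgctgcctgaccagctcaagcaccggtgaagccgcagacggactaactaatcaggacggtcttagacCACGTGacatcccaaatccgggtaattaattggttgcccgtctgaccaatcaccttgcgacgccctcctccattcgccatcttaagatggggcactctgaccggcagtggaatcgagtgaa

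The rises of the genes with and without an E-box in the window had overlapping ranges. With LPS in wild-type cells the 12 genes with it had a median log2 rise of 2.03 (range 1.43 to 2.35) and the 34 without it 1.95 (range 0.95 to 2.93). With anti-IgM the medians were 1.09 and 1.16. These are descriptions of letters in a window, with no measure of binding.

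Among the genes of RNA polymerase I transcription (Polr1a, Polr1b, Polr1c, Rrn3 and Mybbp1a), all 5 rose with both stimuli in both genotypes. Polr1b, the second-largest polymerase subunit, stood at 16.3 and 20.3 FPKM in wild-type unstimulated cells, 57.1 and 61.1 FPKM with anti-IgM, and 116 and 118 FPKM with LPS. The Trpm5-/- libraries held 24.6 and 20.2, 62.5 and 56.2, and 132 and 133 FPKM in the same order. Its LPS rise in wild-type cells was 2.62 ± 0.11 on the log2 scale. Its libraries of the 2 genotypes overlapped without stimulus and with anti-IgM and were separate with LPS. Polr1c, a subunit shared with RNA polymerase III, rose less, by 1.23 ± 0.06 with LPS. Mybbp1a, a MYB-binding nucleolar protein, rose by 1.98 ± 0.07 with LPS. Mybbp1a stood at 75.97 and 84.2 FPKM unstimulated, 165 and 174 under anti-IgM and 309 and 328 under LPS in the wild type, and at 93.4 and 97.0, 164 and 176 and 323 and 351 FPKM in Trpm5-/- cells. For Polr1c the wild-type libraries held 52.2 and 52.7 FPKM at rest, 82.5 and 82.6 after anti-IgM and 122 and 127 after LPS, and the Trpm5-/- libraries 62.8 and 57.6, 96.2 and 98.3 and 142 and 135 FPKM. For Rrn3 the wild-type libraries held 23.6 and 24.3 FPKM at rest, 42.5 and 39.8 after anti-IgM and 73.2 and 72.6 after LPS, and the Trpm5-/- libraries 29.0 and 29.9, 42.5 and 48.3 and 74.6 and 73.4 FPKM. The genotypes were separate in every condition for Polr1c and Rrn3, and only without stimulus for Mybbp1a. For Rrn3 the nearest libraries of the 2 genotypes stood at 42.46 and 42.53 FPKM with anti-IgM and 73.21 and 73.43 FPKM with LPS. Its genotype difference was called with neither stimulus (0.14 ± 0.07 and 0.02 ± 0.07).

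The box C/D snoRNP carries the rRNA 2′-O-methyltransferase fibrillarin (Fbl) on the scaffold proteins Nop56 and Nop58, and the box H/ACA snoRNP carries the pseudouridine synthase dyskerin (Dkc1) with Nhp2, Gar1 and Nop10. All 7 genes rose with both stimuli. Nop58 had the largest LPS rise among them, at 2.39 ± 0.05 in wild-type cells, going from 90.0 and 93.7 FPKM to 489 and 480 FPKM, with 235 and 220 FPKM under anti-IgM. Nop58 in Trpm5-/- cells measured 118 and 114 FPKM at rest, 285 and 283 FPKM with anti-IgM, and 525 and 488 FPKM with LPS. Nop56 rose by 1.98 ± 0.05, Dkc1 by 2.14 ± 0.05 and Nhp2 by 2.16 ± 0.07 with LPS in wild-type cells. Nop56 stood at 209.9 and 224 FPKM unstimulated, 459 and 465 under anti-IgM and 840.4 and 874 under LPS in the wild type, and at 235 and 238, 509 and 514 and 961 and 961 FPKM in Trpm5-/- cells. For Dkc1 the wild-type libraries held 81.8 and 87.1 FPKM at rest, 219 and 204 after anti-IgM and 381 and 369.8 after LPS, and the Trpm5-/- libraries 107 and 105, 237 and 237 and 401 and 396 FPKM. Nhp2 stood at 112 and 117 FPKM unstimulated, 351 and 348 under anti-IgM and 510.5 and 525 under LPS in the wild type, and at 132 and 137, 388 and 407 and 600.4 and 515 FPKM in Trpm5-/- cells. Trpm5-/- libraries of Nop56 and Dkc1 were above wild type in every condition, and those of Nhp2 and Nop58 overlapped wild type with LPS. Nop10, the smallest core protein of the H/ACA particle, rose by 1.19 ± 0.09 with LPS and 0.89 ± 0.09 with anti-IgM, and had the smallest LPS excess over anti-IgM of the 51 genes in wild-type cells (0.30 ± 0.09). That excess was no longer called without wild-type LPS replicate 1 (limma adjusted p = 0.052) or 2 (0.083) or without wild-type anti-IgM replicate 2 (0.145), and quantile normalization turned it to -0.03. For Nop10 the wild-type libraries held 248.8 and 218 FPKM at rest, 462 and 404 after anti-IgM and 526 and 540.0 after LPS, and the Trpm5-/- libraries 261 and 255, 466 and 492 and 605 and 516 FPKM. The 4 members of the H/ACA particle had a median LPS excess over anti-IgM of 0.52 in wild-type cells, against 0.89 for the 3 of the C/D particle. No test of that contrast between particles was run.

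Of the nucleolar scaffold proteins, Npm1 (nucleophosmin, chromosome 11, 33152287 to 33163206, minus strand, mm10) had the highest level of all 51 genes. It stood at 860 and 770 FPKM in wild-type unstimulated cells, 1635 and 1574 FPKM with anti-IgM, and 2895 and 2981 FPKM with LPS. Npm1 in Trpm5-/- cells measured 989 and 980, 2058 and 2073, and 3123 and 2895 FPKM in the same order. The genotypes did not overlap without stimulus or with anti-IgM, and overlapped with LPS. Ncl (nucleolin, chromosome 1, 86344719 to 86359400, minus strand, mm10), which binds nascent pre-rRNA, rose by 2.13 ± 0.05 with LPS in wild-type cells, from 141 and 134 FPKM to 601 and 615 FPKM. Ncl in Trpm5-/- cells went from 173 and 168 FPKM to 663 and 661 FPKM, and with anti-IgM it read 355 and 348 FPKM in wild-type and 391 and 384 FPKM in Trpm5-/- cells. Nolc1, a chaperone of snoRNPs, rose by 2.43 ± 0.06 with LPS. Nolc1 stood at 29.0 and 32.4 FPKM unstimulated, 101 and 96.8 under anti-IgM and 169.6 and 170.1 under LPS in the wild type, and at 34.9 and 34.3, 95.3 and 98.9 and 189 and 184 FPKM in Trpm5-/- cells. Its genotypes overlapped with anti-IgM, and those of Ncl in no condition.

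The 13 genes of the small-subunit processome, the large particle that folds and cleaves the precursor of the 40S subunit, held both a strong and the weakest responder. Rrp9, a protein of the U3 snoRNP (chromosome 9, 106475963 to 106485424, plus strand, mm10), rose by 2.69 ± 0.07 with LPS in wild-type cells and had their largest LPS excess over anti-IgM (1.25 ± 0.07). Rrp9 measured 43.3 and 43.5 FPKM at rest, 116 and 123 FPKM with anti-IgM, and 280 and 291 FPKM with LPS in wild-type cells. Rrp9 in Trpm5-/- cells measured 51.3 and 57.4, 148 and 136, and 334 and 319 FPKM. Imp3 (chromosome 9, 56937475 to 56938398, plus strand, mm10), which joins U3 to the pre-rRNA, went only from 63.5 and 58.1 FPKM to 73.8 and 72.5 FPKM with anti-IgM and 114 and 123 FPKM with LPS in wild-type cells. Imp3 in Trpm5-/- cells measured 60.9 and 65.3, 80.5 and 79.8, and 132 and 128 FPKM. Its anti-IgM rise in wild-type cells, 0.26 ± 0.06, was not called with quantile normalization (limma adjusted p = 0.227) or without wild-type unstimulated replicate 2 (0.051). Wdr43, an early-binding processome protein, rose by 2.14 ± 0.06 with LPS. For Wdr43 the wild-type libraries held 66.1 and 73.2 FPKM at rest, 161 and 156 after anti-IgM and 308 and 313 after LPS, and the Trpm5-/- libraries 86.6 and 85.0, 172 and 179 and 324 and 339 FPKM. Wdr75 stood at 31.3 and 29.7 FPKM unstimulated, 74.7 and 72.8 under anti-IgM and 144 and 141 under LPS in the wild type, and at 36.1 and 39.8, 87.0 and 82.6 and 155 and 166 FPKM in Trpm5-/- cells. For Nop14 the wild-type libraries held 25.7 and 27.4 FPKM at rest, 49.97 and 54.7 after anti-IgM and 90.3 and 86.7 after LPS, and the Trpm5-/- libraries 32.4 and 31.4, 59.4 and 61.8 and 96.6 and 100.4 FPKM. All 3 were separate between genotypes in every condition, with Trpm5-/- higher. The other 10, Heatr1, Utp15, Wdr75, Utp18, Utp20, Imp4, Nop14, Noc4l, Rcl1 and the RNA acetyltransferase gene Nat10, rose by 1.63 to 2.21 with LPS in wild-type cells.

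The 6 late 40S assembly genes rose by 1.46 to 2.25 with LPS in wild-type cells. Nob1, the nuclease that makes the final cut of 18S rRNA (chromosome 8, 107412486 to 107425051, minus strand, mm10), stood at 36.0 and 35.3 FPKM without stimulus, 70.0 and 73.3 FPKM with anti-IgM, and 139 and 138 FPKM with LPS in wild-type cells. Nob1 in Trpm5-/- cells measured 40.1 and 41.8, 85.6 and 86.4, and 166 and 158 FPKM, above wild type in every condition without overlap. Rrp12, an export factor (chromosome 19, 41862851 to 41896173, minus strand, mm10), stood at 14.1 and 14.3 FPKM in wild-type and 20.0 and 20.2 FPKM in Trpm5-/- unstimulated cells. With anti-IgM Rrp12 read 43.4 and 44.5 FPKM in wild-type against 45.3 and 43.2 FPKM in Trpm5-/- cells, and with LPS 65.8 and 67.6 FPKM against 71.8 and 77.8 FPKM. Its genotypes were separate without stimulus and with LPS and overlapped with anti-IgM. Tsr1, a GTPase-like maturation factor, rose by 2.18 ± 0.06 with LPS, and Ltv1, an export and maturation factor of 40S particles, by 1.46 ± 0.05. Tsr1 stood at 26.2 and 24.8 FPKM unstimulated, 68.2 and 66.5 under anti-IgM and 119 and 119.8 under LPS in the wild type, and at 30.4 and 27.7, 68.3 and 70.9 and 115 and 119 FPKM in Trpm5-/- cells. For Ltv1 the wild-type libraries held 64.4 and 67.7 FPKM at rest, 142 and 143 after anti-IgM and 183 and 183 after LPS, and the Trpm5-/- libraries 72.5 and 68.3, 132 and 133 and 171 and 169 FPKM. Ltv1 was higher in Trpm5-/- libraries at rest and lower with either stimulus, and its excess of LPS over anti-IgM in Trpm5-/- cells (0.36 ± 0.05) was not called with quantile normalization (limma adjusted p = 0.254). Of the helicase genes, Ddx21 rose by 2.12 ± 0.06, Ddx18 by 1.70 ± 0.06 and Ddx10 by 1.69 ± 0.09 with LPS. Ddx21 stood at 30.8 and 30.4 FPKM unstimulated, 80.8 and 86.0 under anti-IgM and 136 and 136 under LPS in the wild type, and at 36.8 and 34.6, 91.9 and 87.6 and 150.2 and 142 FPKM in Trpm5-/- cells. For Ddx18 the wild-type libraries held 40.8 and 40.4 FPKM at rest, 71.8 and 69.3 after anti-IgM and 139.9 and 128 after LPS, and the Trpm5-/- libraries 45.02 and 47.1, 80.03 and 82.6 and 141 and 146 FPKM. Both were higher in Trpm5-/- libraries in every condition without overlap.

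The 14 genes of 60S assembly had the highest median LPS rise of the 8 role groups in wild-type cells, at 2.21, a 4.63-fold rise. Rrp1b (chromosome 17, 32036100 to 32062865, plus strand, mm10), a nucleolar protein of large-subunit processing, had the largest rise of all 51. It stood at 8.18 and 9.12 FPKM in wild-type unstimulated cells, 31.1 and 34.6 FPKM with anti-IgM, and 74.7 and 70.3 FPKM with LPS. Rrp1b in Trpm5-/- cells measured 13.6 and 11.2, 36.7 and 38.2, and 89.0 and 93.5 FPKM. The LPS rise of 2.93 ± 0.10 in wild-type cells, 7.62-fold on the log2(FPKM + 1) scale, placed it 49 among the 10797 tested genes. Gnl3 (nucleostemin), a GTPase of the nucleolus, rose by 2.55 ± 0.06 and Nop16 by 2.51 ± 0.06. Gnl3 stood at 73.2 and 69.1 FPKM unstimulated, 245 and 229.8 under anti-IgM and 401 and 442 under LPS in the wild type, and at 87.0 and 92.4, 268 and 266 and 457 and 456 FPKM in Trpm5-/- cells. For Nop16 the wild-type libraries held 48.5 and 43.4 FPKM at rest, 138 and 133 after anti-IgM and 263 and 269 after LPS, and the Trpm5-/- libraries 62.2 and 58.8, 153 and 148 and 299 and 280.4 FPKM. Ebna1bp2 stood at 31.0 and 32.4 FPKM unstimulated, 71.1 and 72.9 under anti-IgM and 106 and 109 under LPS in the wild type, and at 39.1 and 37.9, 82.4 and 79.6 and 128 and 121 FPKM in Trpm5-/- cells. All 3 were higher in Trpm5-/- libraries in every condition without overlap. The PeBoW complex genes Pes1, Bop1 and Wdr12, whose products act as 1 unit in 60S assembly, rose by 1.43 ± 0.05, 1.80 ± 0.06 and 2.22 ± 0.07, and Pes1 was the smallest LPS rise of the 14. Mrto4, Rrs1, Nop2, Noc2l, Noc3l, Nip7, Grwd1 and Ebna1bp2 rose by 1.67 to 2.36.

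**Figure D3:**
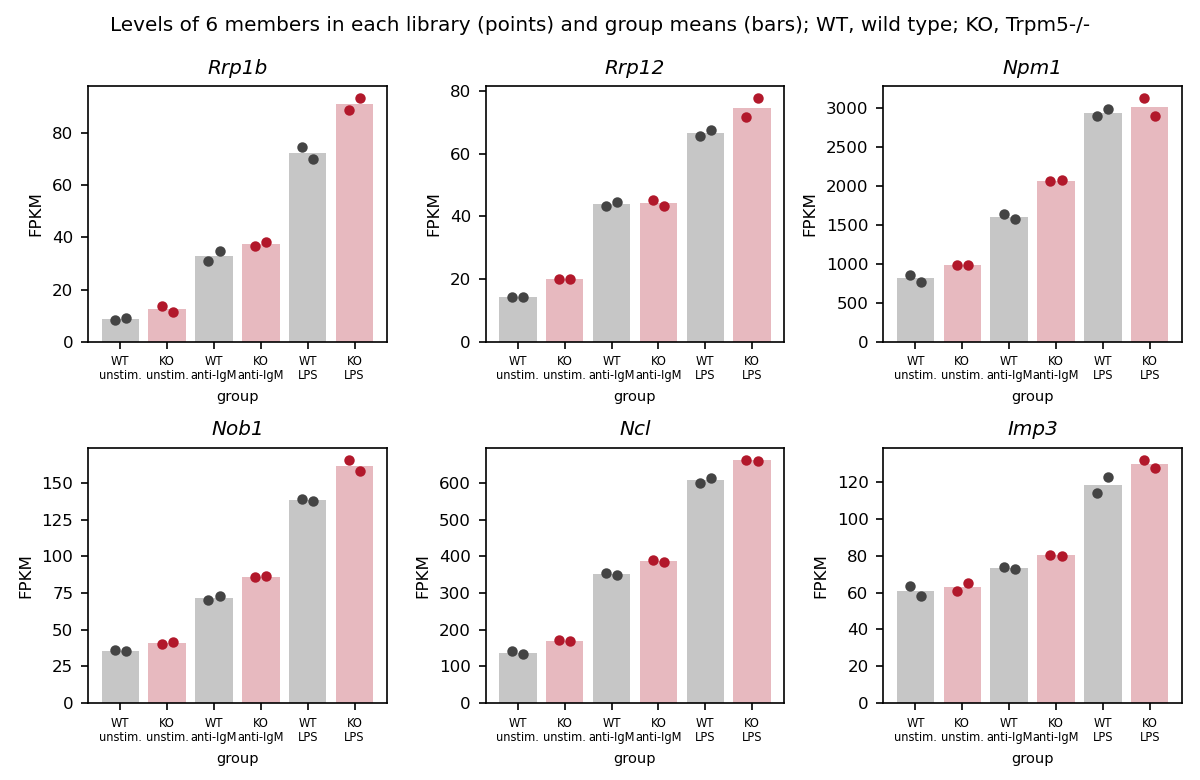
FPKM of 6 genes in each library (points) with group means (bars), black for wild type and red for Trpm5-/-, in the order unstimulated, anti-IgM and LPS. Nob1 is higher in Trpm5-/- cells in every condition, Rrp12 without stimulus and with LPS, and the libraries of the 2 genotypes overlap for Npm1 with LPS.

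The comparison of genotypes asks whether these genes differ between Trpm5-/- and wild-type cells before and after stimulation. With strain and origin of the mice unknown, loss of TRPM5 cannot be told apart from other differences between the mice. Differences were small next to the stimulus responses, and they leaned one way: the estimate was positive (higher in Trpm5-/-) for 50 of 51 genes without stimulus, 44 with anti-IgM and 49 with LPS, although with quantile normalization the sign of 8 genes with anti-IgM and 7 with LPS changed. Their medians were 0.20 (1.15-fold), 0.13 (1.10-fold) and 0.10 (1.07-fold) on the log2 scale, against medians of 0.02, -0.00262 and 0.02 over all tested genes, of which 54.7%, 49.3% and 54.8% were positive. No gene of the 51 reached a 1.5-fold difference in any condition. Without stimulus 19 of 51 genes were called higher and 0 lower by limma (background 4.45% of tested genes higher and 1.66% lower). With anti-IgM 4 were called higher and 0 lower (background 1.91% and 1.92%), and with LPS 1 was called higher and 0 lower (background 1.82% and 1.78%). At an unadjusted p under 0.05 the counts were 38, 22 and 12 of 51 in the order unstimulated, anti-IgM and LPS, or 74.5%, 43.1% and 23.5%, against 20.6%, 19.6% and 16.7% of all tested genes. The libraries of the genotypes did not overlap, with Trpm5-/- higher, for 42 genes without stimulus (background 28.1%), 37 with anti-IgM (25.8%) and 36 with LPS (26.5%). Wild type was higher without overlap for 0 genes without stimulus (background 21.4%), 3 with anti-IgM (25.8%) and 1, Ltv1, with LPS (19.3%). The share of all tested genes with separate genotypes in every condition was not counted. Genes given library by library above were partly picked by a small genotype p.

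The called genes without stimulus came from 7 of the 8 role groups. Rrp12 had the largest difference (0.47 ± 0.06, limma adjusted p = 0.00354), close to Rrp1b (0.47 ± 0.10), and Nop14 the smallest called (0.26 ± 0.06). Ncl (0.30 ± 0.05), Npm1 (0.27 ± 0.07), Nop58 (0.33 ± 0.05), Dkc1 (0.33 ± 0.05) and Rrn3 (0.29 ± 0.07) were also called. So were Heatr1, Wdr43, Wdr75, Rrp9, Nat10, Pno1, Nop16, Wdr12, Ebna1bp2, Gnl3 and Mrto4, while 0 of the 3 helicase genes was. The count fell to 5 and 7 without Trpm5-/- unstimulated replicates 1 and 2, to 6 and 6 without wild-type unstimulated replicates 1 and 2, and to 12 without either wild-type LPS library. It fell to 0 in a fit of the 4 unstimulated libraries alone. The share of all tested genes called higher fell too, from 4.45% to between 1.02% and 1.90% without 1 unstimulated library, to 3.52% and 3.55% without wild-type LPS replicates 1 and 2, and to 0.296% with the unstimulated libraries alone. Rrp12 was called in every alternative other than that fit (limma adjusted p = 0.108), while Nop14 kept its call after leaving out only 1 of the 12 libraries, wild-type anti-IgM replicate 1. With quantile normalization 15 were called, with a background of 4.09% higher and 2.57% lower.

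With anti-IgM the 4 called genes were Npm1 (0.36 ± 0.07), Nop58 (0.32 ± 0.05), Pno1 (0.31 ± 0.07) and Nob1 (0.26 ± 0.05). Polr1a, Nat10 and Ltv1 went the other way, with wild-type libraries above both Trpm5-/- libraries, but were not called (-0.13 ± 0.09, -0.11 ± 0.08 and -0.10 ± 0.05). Calls with anti-IgM dropped to 1 or 0 without any 1 of the 4 anti-IgM libraries: 1 and 0 without wild-type replicates 1 and 2, and 0 and 0 without Trpm5-/- replicates 1 and 2. Of all tested genes, between 0.491% and 0.713% were then called higher. With LPS the only called gene was Nob1 (0.22 ± 0.05, limma adjusted p = 0.0485, 0.0388 to 0.230 over its alternatives), and it was not called after leaving out any 1 of the 12 libraries. Rrp1b had the largest LPS estimate, 0.33, without a call (limma adjusted p = 0.106).

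**Figure D4:**
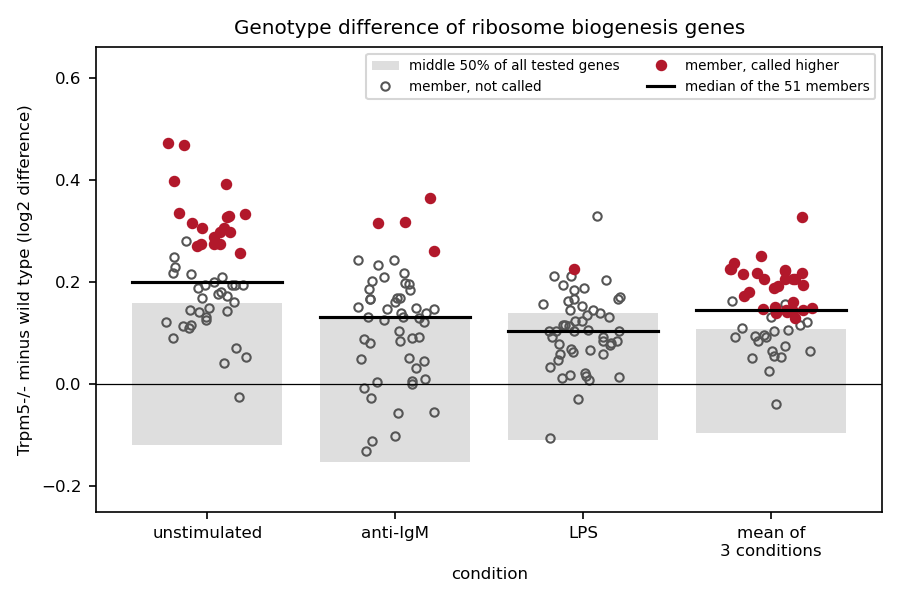
Trpm5-/- minus wild-type log2 difference of each of the 51 genes in each condition and averaged over the 3 (points, red where called higher), with the median of the 51 (line) and the middle 50% of all tested genes (grey box). The medians are 0.20, 0.13, 0.10 and 0.15 from left to right, and red points number 19, 4, 1 and 30.

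Averaged over the 3 conditions, 30 of 51 genes were called higher in Trpm5-/- cells and 0 lower (limma, background 10.2% higher and 5.88% lower), with a median of 0.15, or 1.11-fold. Counts by role were 2 of 5 for polymerase I transcription, 2 of 3 for the C/D particle, 3 of 4 for the H/ACA particle, 2 of 3 for the scaffolds, 7 of 13 for the small-subunit processome, 3 of 6 for late 40S assembly, 2 of 3 for helicases and 9 of 14 for 60S assembly. Rrp1b had the largest average difference (0.33 ± 0.06), followed by Rrp9 (0.25 ± 0.04), Nop58 (0.24 ± 0.03), Nob1 (0.23 ± 0.03), Npm1 (0.22 ± 0.04) and Wdr75 (0.22 ± 0.04). Nop16 and Ebna1bp2 each stood at 0.22, Rrp12 at 0.21, and Polr1c, Dkc1 and Ncl each at 0.19. Nhp2 (0.17 ± 0.04), Ddx18 (0.16 ± 0.03), Nop56 (0.15 ± 0.03), Rrn3 (0.15 ± 0.04) and Ddx21 (0.14 ± 0.03) were called, but not with quantile normalization, under which 18 of 51 genes were called, with a background of 7.28% higher and 6.76% lower. Ddx21 also lost its call without wild-type anti-IgM replicate 1 or without replicate 1 of any Trpm5-/- group, and Rrn3 after leaving out any library other than anti-IgM replicate 1 of either genotype. Ltv1 was the 1 gene with a negative average (-0.04). With any 1 library left out, between 24 and 28 genes were called, of which 24 to 27 were among the 30, and 7.35% to 9.31% of all tested genes were called higher.

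Values of other measures differed between genotypes in the same libraries, and their part in these differences was not tested. Malat1 and Neat1 summed to 389 to 432.3 FPKM in wild-type and 297.5 to 305.4 FPKM in Trpm5-/- unstimulated cells. Their sum was also lower in Trpm5-/- cells with anti-IgM (204.2 to 212.7 against 258.5 to 293.9 FPKM) and overlapped with LPS. The 6 B cell markers were lower in sum in Trpm5-/- cells in every condition. Those sums were 5131 to 5142 against 5374 to 5618 FPKM without stimulus, 2751 to 2813 against 3375 to 3434 with LPS, and 1632 to 1663 against 1895 to 1907 with anti-IgM. The 5 erythroid markers summed to 409.7 to 680.7 FPKM in wild-type and 367 to 491 FPKM in Trpm5-/- unstimulated cells, and to 374.6 to 518.4 against 100.5 to 196.3 FPKM with anti-IgM. The 5 marginal zone markers summed to 373 to 406.4 FPKM in wild-type and 592.9 to 608.3 FPKM in Trpm5-/- unstimulated cells. This sum was likewise higher in Trpm5-/- cells with either stimulus, and Cd9 made up most of it. Cd9, S1pr3 and Dtx1 were higher in every condition. Cr2 overlapped without stimulus and was lower in Trpm5-/- cells with LPS (70.3 and 75.1 against 86.4 and 87.4 FPKM). It was also lower with anti-IgM (51.6 and 52.5 against 58.5 and 57.1 FPKM). Cd1d1 overlapped without stimulus, was higher with LPS and lower with anti-IgM. The follicular markers Fcer2a and Cd200 were lower in sum in Trpm5-/- cells in every condition, at 106.7 to 108 against 149.2 to 166.4 FPKM without stimulus, 597.1 to 605.7 against 956.5 to 976.4 FPKM with LPS, and 68.5 to 77.0 against 130 to 147.1 FPKM with anti-IgM. Fcer2a made up most of each sum and was lower in every condition. Cd200 alone overlapped without stimulus, was higher in Trpm5-/- cells with LPS (45.3 and 43.2 against 39.2 and 33.6 FPKM) and lower with anti-IgM. The plasma cell markers were higher in sum in every condition, at 149.7 to 162.7 against 119.1 to 122.7 FPKM without stimulus, 90.2 to 94.5 against 74.5 to 76.5 FPKM with LPS, and 171.8 to 173.5 against 133.6 to 139.2 FPKM with anti-IgM. Xbp1 and Jchain were higher in every condition, and Prdm1 overlapped with anti-IgM. Sdc1 was lower in Trpm5-/- cells without stimulus (14.8 and 14.1 against 17.0 and 19.7 FPKM) and with anti-IgM (4.10 and 4.74 against 6.96 and 7.24 FPKM), and overlapped with LPS.

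Whether the stimuli acted differently in the 2 genotypes was tested by the interaction, the response in Trpm5-/- cells minus that in wild-type cells. By limma 0 of 51 genes were called for LPS (background 0.102% of tested genes in either direction) and 0 for anti-IgM (background 0.0278%). At an unadjusted p under 0.05 there were 14 for LPS, or 27.5% of the genes against 10.3% of all tested genes, and 9 for anti-IgM, or 17.6% against 7.9%, and all of these were negative. The estimate was negative for 43 genes with LPS and 38 with anti-IgM, with medians of -0.10 and -0.11 against -0.02 and -0.04 over all tested genes. Rrp12 had the smallest p of the 51 for anti-IgM, with an interaction of -0.46 ± 0.09 (limma adjusted p = 0.225), and Nop58 for LPS, with -0.27 ± 0.08 (limma adjusted p = 0.302). The interaction shares its unstimulated libraries with the unstimulated genotype difference, so these values are not independent of the differences given above.

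Another 121 factors of ribosome biogenesis, from a list of polymerase I cofactors, snoRNP assembly factors, processome and subunit assembly proteins and exosome subunits, were measured beside the 51. All 121 passed the filter. With LPS in wild-type cells 114 rose and 2 fell (limma, background 35% of tested genes higher and 34.4% lower), with a median of 1.36, and with anti-IgM 109 rose and 0 fell (background 27.7% higher and 20.9% lower), with a median of 0.72. Ccdc86 (2.24 ± 0.06) and Ppan (2.15 ± 0.06), both of 60S assembly, had the smallest p among the LPS rises. Pih1d1, a subunit of the chaperone complex that assembles snoRNPs, fell by 0.48 ± 0.14, and Ttf1, the polymerase I termination factor, by 0.26 ± 0.09. Averaged over conditions, 36 of the 121 were higher in Trpm5-/- cells and 0 lower (background 10.2% and 5.88%), with a median of 0.12. Riok2, a kinase of late 40S maturation (0.35 ± 0.04), and the processome gene Wdr3 (0.23 ± 0.03) had the smallest p.

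Some levels may hold reads of other transcripts. Of the 51 genes, 13 share at least 200 bases at 95% identity or more with a transcript of another GENCODE M21 gene, among them Npm1, Nop56, Ddx18, Pes1 and Imp3. Small RNA genes and unconfirmed transcripts aside, 21 overlap another annotated gene, in each case on the opposite strand. The sources used here do not say how the authors' counting treated such reads or strand, so the levels of these genes are uncertain to that extent. Within the bounds of 7 of the 51 genes, Nop56, Nop58, Dkc1, Ncl, Wdr43, Tsr1 and Gnl3, lie 21 annotated snoRNAs on the same strand. Their own levels, and whether they lie in introns, were not analysed here.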

How the data were processed

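Marginal zone B cell RNA went into a SMART-Seq HT full-length cDNA preparation and Nextera libraries, per the labels' protocols. The deposited FPKM values, 1 file per library, were made by the authors on mm10 with Cufflinks 2.2.1, SAMtools 0.1.19, and TopHat2 2.0.13 and Bowtie2 2.2.3, per the submitters' processing notes. The files name no unit, and FPKM was inferred from the naming of Cufflinks and from the values. The sources used here do not state annotation, counting settings or strand. Median ratios of the libraries lay between 1.008 and 1.015, and no further scaling was applied.

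A group-means model over the 12 libraries was fitted with limma 3.58.1 (R 4.3.3, trended eBayes, 6 residual degrees of freedom) to log2(FPKM + 1) of 10797 genes, those reaching 1 FPKM in 2 or more libraries. Fold changes are on that scale, which understates changes of low genes. Tests were 2-sided, with Benjamini-Hochberg adjustment over all tested genes and a call under 0.05. Errors of log2 differences are standard errors. On simulated data for the unstimulated genotype difference (10797 genes) recovery was 37.3% for a 1.5-fold change, 76.1% for 2-fold and 95.5% for 4-fold, and 9 of the 148 calls were false. Zero pairs of libraries were identical. Members, lists and role groups were chosen with earlier results of these data known. Genes with values by library were, in each role group, the 2 of smallest p in the average genotype difference and the 2 in the wild-type LPS response, the extreme called members of the other comparisons, and any called against the majority. Alternatives were another pseudocount, filters, scalings, sample sets and a replicate block. The promoter, overlap and near-copy checks were added after seeing the data. Positions are from GENCODE M21 and promoter sequences from RefSeq.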

Additional observations from a re-analysis of the deposited data

How the results depend on the processing

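All 51 rises with LPS in both genotypes, and with anti-IgM in Trpm5-/- cells, were called under every alternative run (pseudocount of 0.1, no filter, mean of at least 5 FPKM, median-ratio scaling, quantile normalization, compared groups only, replicate block, and leaving out each library). Between 50 and 51 were called for anti-IgM in wild-type cells, 47 to 51 for the LPS excess over anti-IgM in wild-type cells and 48 to 51 in Trpm5-/- cells. For both interactions the count was 0 in every alternative. The unstimulated genotype count of 19 went to 0 with the compared groups only, where 2 residual degrees of freedom remain, and to between 5 and 16 when 1 library was left out. The anti-IgM count of 4 went to 1 with quantile normalization and 1 with the compared groups only, and to between 0 and 4 without 1 library. The LPS count of 1 went to 0 with a pseudocount of 0.1, 0 with quantile normalization, 0 with the compared groups only and 0 without any 1 library (range 0 to 0). The average count of 30 went to 18 with quantile normalization; the cause was not tested. With the replicate block the counts were 17, 0, 4 and 32 for the unstimulated, LPS, anti-IgM and average genotype differences. What same-numbered libraries share, beyond the number, is not known. The correlation of their deviations across 15 pairs of groups ran from -0.172 to 0.199, which cannot show whether they share a mouse, culture or batch. The replicate block was not taken as a pairing, and the loss of the 1 LPS call under it was not read as a weaker effect. Of 47 single-gene results tracked, 34 kept direction and call in every alternative and 13 did not. The wild-type LPS excess of Nop10 over anti-IgM reversed with quantile normalization (-0.031). For the genotype difference with LPS, quantile normalization moved the calls of all tested genes from 1.82% higher and 1.78% lower to 1.08% and 1.74%. Unknown read totals limit what can be said of precision.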
